A study of Homo sapiens and Mus musculus with 12 samples.

Results

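The genes described are those of 4 histone H3 lysine 9 (H3K9) methyltransferases other than EHMT2 and EHMT1, namely SUV39H1, SUV39H2, SETDB1 and SETDB2, and of TRIM28 (KAP1), a scaffold that brings SETDB1 to its targets. They were selected by symbol, which gave 5 of the 22021 genes of a mouse count table and 5 of the 18304 genes of a human one. No filter on their values was used, but these genes were chosen with earlier results of these data known. The question asked of them was whether their transcripts rose where EHMT2 (G9a), an H3K9 mono- and dimethyltransferase, was lost or inhibited. The mouse libraries came from natural killer (NK) cells sorted as CD3- NK1.1+ from the spleens of adult C57BL/6J mice, 3 libraries from Ehmt2 flox/flox mice (WT) and 3 from Ehmt2 flox/flox;Ncr1-iCre mice (KO). Both groups carried the floxed alleles, and Cre in the KO mice was driven by Ncr1, which encodes the activating receptor NKp46, so that cells without Ncr1 activity kept Ehmt2. The human libraries came from NK92MI, an NK lymphoma line that makes its own IL-2, treated with the EHMT2 inhibitor BIX-01294 (BIX) or with its solvent DMSO, 3 libraries each. The human control columns are headed CON and numbered 1 to 3, and they were taken as the DMSO group because DMSO is the only control in the labels. No label links a CON number to a numbered DMSO sample. The KO samples carry a genotype label that names Ezh2 instead of Ehmt2, and they were grouped by their titles. The labels do not say that libraries of a group came from separate animals or cultures, so p-values measure the spread between these libraries, which may be technical.

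H3K9 methylation is written by several enzymes with different products and locations. EHMT2 and its partner EHMT1 (GLP) place mono- and dimethylation, largely in gene-rich chromatin. SUV39H1 and SUV39H2 trimethylate H3K9 in pericentromeric heterochromatin, where the mark is bound by HP1 proteins. SETDB1 trimethylates H3K9 at endogenous retroviruses and at other sites to which TRIM28 is brought by KRAB zinc finger proteins, and SETDB2 is a related enzyme with a SET domain. SUV39H1 is also known for keeping stem and memory genes silent in differentiating T cells.

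Total counts lay between 25891680 and 37438868 per mouse library and between 16579469 and 17165446 per human library. Expression is given as CPM, counts scaled to a common library size after TMM normalization. After removal of genes with low counts, 13189 mouse and 12727 human genes were tested, and all 5 genes passed this filter in both species. Defining NK markers were detected in both cell types. In the mouse libraries the summed level of 12 NK markers was 6257 to 10070 CPM in WT and 11380 to 13120 CPM in KO. Of them, 6 were called higher by edgeR, beside 4.44% higher and 7.43% lower over all genes tested. Markers of other cells were lower in the KO libraries: 7 macrophage markers summed to 2339 to 5456 CPM in WT and 1295 to 2311 CPM in KO (3 called lower), 5 erythroid markers to 203.9 to 327.5 and 95.5 to 125.7 CPM (5 called lower), and 6 neutrophil markers to 162.3 to 1365 and 29.3 to 185 CPM (1 called lower). The 5 B cell markers listed summed to 345.8 to 1046 and 28.3 to 310.4 CPM and the 5 T cell markers listed to 115.5 to 203.6 and 44.1 to 140.5 CPM, with none called by edgeR. DESeq2 called 10 NK, 7 macrophage, 5 erythroid, 2 neutrophil, 1 T cell and 0 B cell markers. No marker was at 0 in all libraries. The part of these cells in the values of the 5 genes was not tested, and in bulk samples fewer cells of a type and less RNA per cell cannot be told apart. In NK92MI cells the 12 NK markers summed to 4417 to 4863 CPM in DMSO and 5085 to 6416 CPM in BIX. Of 11 tested, 7 were called higher and 3 lower, beside 18.4% higher and 18.4% lower over all genes tested. The 3 T cell markers listed summed to 585 to 605.4 CPM in DMSO and 607.2 to 699.8 CPM in BIX (0 of 2 tested called by edgeR). The 4 B cell markers listed summed to 13.4 to 14.4 and 24.2 to 26.3 CPM (2 of 2 tested called higher), and 2 of 5 macrophage markers were listed, at 2.05 to 3.49 and 4.13 to 5.11 CPM (1 of 1 tested called higher). The neutrophil (2 of 4 listed) and erythroid (3 of 5 listed) markers summed to less than 1 CPM in each library. Their part in the human values was not tested either.

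Ehmt2 had 274.7, 284.4 and 285.5 CPM in WT NK cells and 170.7, 142.7 and 136.9 CPM in KO NK cells. All KO libraries were below all WT libraries, with transcripts remaining in each (log2 fold change −0.91 ± 0.10 SE, adjusted p = 0.0162 by edgeR's quasi-likelihood test with Benjamini-Hochberg adjustment over all genes). The call was lost without WT replicate 3, KO replicate 2 or KO replicate 3 (adjusted p from 0.00289 to 0.121 over the 6 fits with 1 library left out). Reads from outside the floxed exons and reads from cells that kept the allele cannot be told apart in these tables. Ezh2, the gene in the genotype label, was at 41.6, 44.7 and 45.8 CPM in WT and 35.0, 39.5 and 38.4 CPM in KO and was not called (log2 fold change −0.23, adjusted p = 0.116).

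Neither the other H3K9 methyltransferases nor Trim28 were called higher in KO libraries. With an adjusted p under 0.05 as the limit, 0 of the 5 genes were called in either direction, by edgeR and by DESeq2, and 0 had an unadjusted p under 0.05 by edgeR, while 4.44% of all genes tested were called higher and 7.43% lower. All 5 point estimates were below 0, with a median log2 fold change of −0.13 beside 0.01 over all genes tested. With the thresholds of the study (adjusted p under 0.01 and an absolute log2 fold change over 0.5) 0% of all genes were called higher and 0% lower by edgeR. At an unadjusted p under 0.05, 2080 genes were higher and 2639 lower, and DESeq2 called 1495 genes with the thresholds of the study.

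Suv39h1 (X:8061171-8074760 of GRCm38, minus strand) was counted at 42.0, 37.3 and 38.4 CPM in WT and at 35.8, 35.8 and 35.1 CPM in KO. The KO libraries lay close together and all below the WT libraries. The log2 fold change was −0.14 ± 0.09 SE (adjusted p = 0.265), with a 95% interval from −0.34 to 0.06. An antisense gene, Gm14820, overlaps part of its exons (14.6% of exon bases are covered by genes of the other strand), and since the strand setting of the counting is not stated, their reads cannot be told apart.

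Suv39h2 (2:3455815-3475031, minus strand), the paralog of Suv39h1, was close to the lower limit of measurement, with 54, 40 and 34 raw counts in WT and 28, 52 and 50 in KO. These are 1.46, 1.55 and 0.913 CPM in WT and 0.762, 1.40 and 1.37 CPM in KO. The groups overlapped, and the lowest library of all was KO replicate 1. The interval of its fold change is wide, from 49.6% lower to 62.6% higher (log2 fold change −0.14 ± 0.36 SE, adjusted p = 0.796), so these libraries do not show whether it changed.

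Setdb1 (3:95323525-95357202, minus strand) was at 55.3, 48.7 and 58.3 CPM in WT and 54.4, 55.7 and 47.6 CPM in KO. The groups overlapped almost fully, with the highest library in WT and the lowest in KO. The log2 fold change was −0.04 ± 0.10 SE (adjusted p = 0.793), with an interval from −0.28 to 0.20.

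Setdb2 (14:59402009-59440884, minus strand) was at 19.3, 21.6 and 19.5 CPM in WT and 19.3, 17.7 and 18.2 CPM in KO. The KO libraries were all lower, but the highest KO value (19.28) and the lowest WT value (19.32) were nearly the same. Its log2 fold change of −0.13 ± 0.10 SE was not called (adjusted p = 0.386), with an interval from −0.36 to 0.10.

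Trim28 (7:12999114-13031035, plus strand) was at 231.4, 207.7 and 215.3 CPM in WT and 200.6, 217.0 and 215.0 CPM in KO. The groups overlapped (log2 fold change −0.05 ± 0.08 SE, adjusted p = 0.685, interval −0.24 to 0.14). Groups that did not overlap were thus seen for 2 of the 5 genes, Suv39h1 and Setdb2, both lower in KO, where 19.3% of all genes tested were lower and 19.1% higher in all KO libraries. With 3 against 3 libraries the exact permutation test cannot go below p = 0.1.

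In NK92MI cells EHMT2 was counted at 57.1, 61.6 and 54.3 CPM in the DMSO libraries and at 40.4, 39.3 and 35.8 CPM in the BIX libraries. Transcripts of the inhibited enzyme were thus lower in every BIX library (log2 fold change −0.58 ± 0.08 SE, adjusted p = 1.01e-04). BIX-01294 blocks the enzyme's activity, so this value does not measure how far it was inhibited. EHMT1 was at 85.1, 83.3 and 79.2 CPM in DMSO and 69.4, 77.8 and 72.3 CPM in BIX, without overlap (log2 fold change −0.17, adjusted p = 0.0664).

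TRIM28 fell in BIX-treated NK92MI cells, and no transcript of the other H3K9 methyltransferases was called higher. Of the 5 genes, 1 was called lower and 0 higher at an adjusted p under 0.05, while 18.4% of all genes tested were called lower and 18.4% higher. No gene of the 5 met the thresholds of the study, which 5.43% of all genes met as lower and 6.24% as higher. The median log2 fold change of the 5 was −0.04, beside −0.01 over all genes tested.

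TRIM28 (19:58544064-58550722 of GRCh38, plus strand) was counted at 544.2, 589.5 and 539.6 CPM in DMSO and at 446.6, 407.7 and 461.8 CPM in BIX. Every BIX library was below every DMSO library. The level was 21.4% lower (95% interval 13.2% to 28.8% lower), a log2 fold change of −0.35 ± 0.07 SE (adjusted p = 0.00115, and 3.23e-05 by DESeq2). It misses the fold minimum of the study.

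SETDB1 (1:150926263-150964744, plus strand), the methyltransferase that TRIM28 recruits, was at 43.5, 44.9 and 44.7 CPM in DMSO and 39.4, 42.3 and 34.5 CPM in BIX. The groups did not overlap, and the BIX libraries were spread more widely than the DMSO libraries. The log2 fold change was −0.20 ± 0.09 SE, with an interval from −0.38 to −0.01, but it was not called after adjustment (adjusted p = 0.0950). Without BIX replicate 2, the highest of the BIX libraries, it was called at −0.26 (adjusted p = 0.0254). Genes of the other strand, among them CERS2, cover 12.9% of its exon bases.

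SUV39H1 (X:48695554-48709016, plus strand) was at 47.5, 50.6 and 47.5 CPM in DMSO and 49.0, 40.7 and 54.5 CPM in BIX. The BIX libraries lay on both sides of the DMSO libraries (log2 fold change −0.01 ± 0.10 SE, adjusted p = 0.926, 95% interval −0.22 to 0.20). An antisense overlap of 21.2% of its exon bases leaves its count uncertain.

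SUV39H2 (10:14878820-14904315, plus strand) was at 46.4, 40.3 and 42.4 CPM in DMSO and 43.3, 41.2 and 41.7 CPM in BIX. The BIX values lay within the range of the DMSO values, and the log2 fold change was −0.03 ± 0.08 SE (adjusted p = 0.785, interval −0.21 to 0.14). In this line the gene was read far more often than in mouse splenic NK cells, where it had at most 54 counts in a library.

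SETDB2 (13:49444274-49495003, plus strand) was at 45.1, 43.5 and 43.3 CPM in DMSO and 42.9, 45.6 and 39.6 CPM in BIX. The groups overlapped, with both the highest and the lowest library among the BIX libraries (log2 fold change −0.04 ± 0.08 SE, adjusted p = 0.715, interval −0.21 to 0.13). Of the 5 genes, 2 (TRIM28 and SETDB1) were lower in all BIX libraries, where 23.9% of all genes tested were lower and 24.1% higher.

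**Figure D1:**
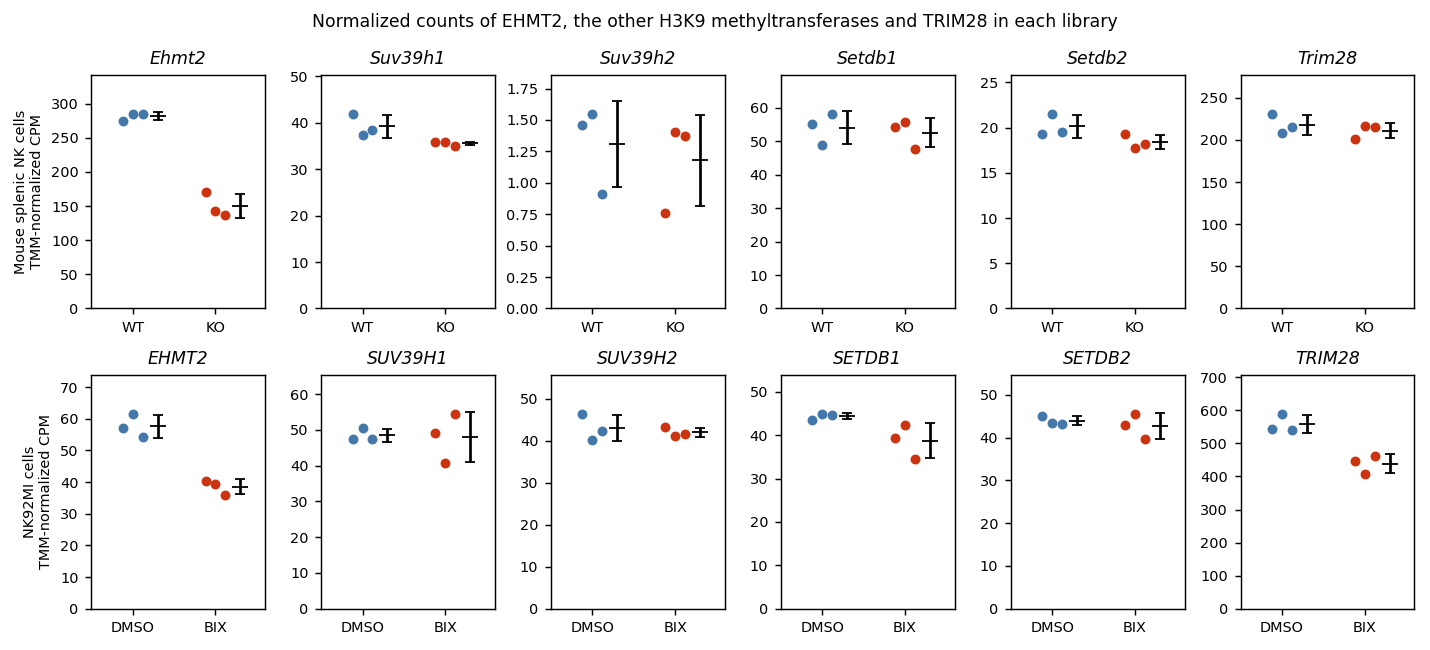
TMM-normalized CPM (vertical axes from 0) of EHMT2, the 4 other methyltransferase genes and TRIM28 in each library of mouse splenic NK cells (top, WT in blue and KO in red) and NK92MI cells (bottom, DMSO in blue and BIX in red). Points are libraries, black bars the mean ± SD (n = 3). Ehmt2 is lower in every KO library, TRIM28 is lower in every BIX library, and no panel shows a case group wholly above its controls.

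**Figure D2:**
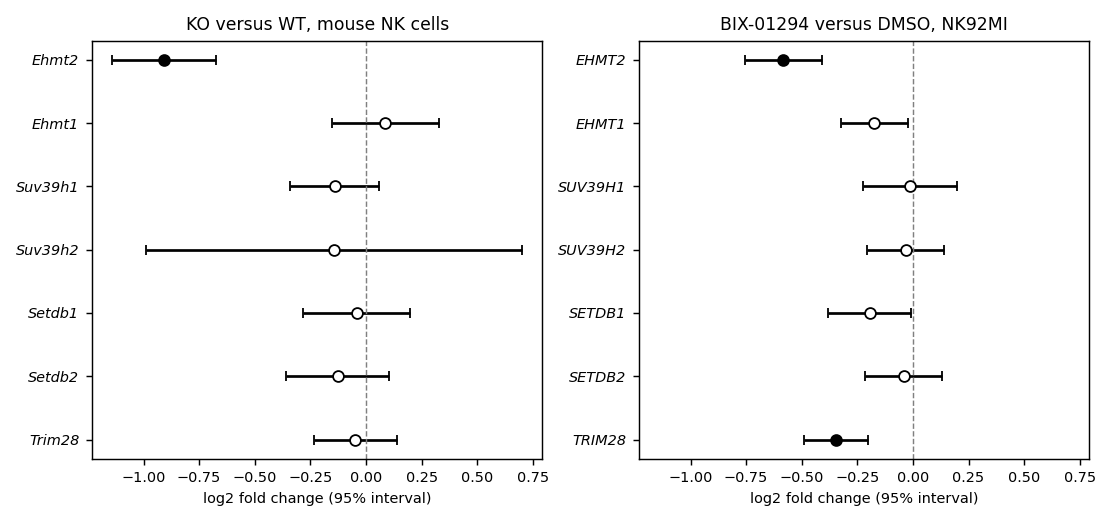
Log2 fold changes (horizontal axes) with 95% intervals from edgeR's quasi-likelihood fit for EHMT2, EHMT1 and the 5 genes, KO against WT on the left and BIX-01294 against DMSO on the right. Filled points have an adjusted p under 0.05: Ehmt2 at −0.91 on the left, EHMT2 at −0.58 and TRIM28 at −0.35 on the right. The interval of Suv39h2 is the widest, from −0.99 to 0.70.

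The genes differed widely in level. Per kb of exon, Trim28 was the most abundant in WT NK cells at 52.5 ± 2.91 CPM (SD, n = 3), close to Ehmt2 at 51.3 ± 1.08 CPM. Setdb1 (7.89 ± 0.71), Ehmt1 (7.71 ± 0.45) and Suv39h1 (7.44 ± 0.47 CPM per kb of exon) did not differ beyond their spread. Setdb2 followed at 4.97 ± 0.31 and Suv39h2 was last at 0.296 ± 0.0781 CPM per kb of exon. In DMSO-treated NK92MI cells the order was TRIM28 (129.5 ± 6.40), SUV39H1 (15.0 ± 0.55), SUV39H2 (12.1 ± 0.88), EHMT2 (7.90 ± 0.50), SETDB2 (6.62 ± 0.15), SETDB1 (6.02 ± 0.10) and EHMT1 (3.72 ± 0.14 CPM per kb of exon). The order depends in part on the length used. Per kb of coding sequence, Suv39h1 (28.9 to 32.6 CPM over the WT libraries) stood above Setdb1 (12.4 to 14.9 CPM), and SUV39H1 (36.9 to 39.3 CPM over the DMSO libraries) overlapped SUV39H2 (32.8 to 37.8 CPM). EHMT1 and EHMT2 changed places: per kb of coding sequence EHMT1 (18.3 ± 0.68) and SETDB2 (20.4 ± 0.47) stood above EHMT2 (14.9 ± 0.94), and SETDB1 was last (10.9 ± 0.18 CPM).

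The levels per kb of exon of the 6 methyltransferase genes were summed in each library to compare the loss of Ehmt2 with the others. These sums were chosen with the values known, and they leave out Prdm2 and Prdm16, described below. In KO NK cells the Ehmt2 level was 27.4 ± 3.29 CPM per kb against 51.3 ± 1.08 in WT. The other 5 genes together were at 28.8, 28.1 and 28.1 CPM per kb in WT and at 26.8, 28.5 and 27.0 in KO. These groups overlapped, so the summed level of all 6 genes was lower in KO by about what Ehmt2 lost, 54.8 ± 3.03 against 79.6 ± 0.679 CPM per kb (SD, n = 3).

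Ehmt1 was at 62.1, 66.5 and 59.2 CPM in WT and 58.2, 71.8 and 69.2 CPM in KO, with overlap (log2 fold change 0.09, adjusted p = 0.572). As shares of the sum, Ehmt2 made up 64.4 ± 0.818% in WT and 49.8 ± 3.34% in KO. Suv39h1 took 9.35 ± 0.668% and 12.3 ± 0.563%, Setdb1 9.91 ± 0.898% and 14.0 ± 0.808%, and Setdb2 6.25 ± 0.368% and 8.32 ± 0.330% in WT and KO. Ehmt1 had the largest gain of the 5, from 9.69 ± 0.580% to 15.0 ± 2.29%. Each of these shares was higher in all KO libraries (exact permutation test, two-sided, p = 0.1, the smallest possible) although none of the 4 genes was called higher in level; a share is relative to a sum that Ehmt2 lowers. Shares depend on the length used: with coding length that of Suv39h1 was 21.4 ± 1.31% in WT and 26.2 ± 0.760% in KO, and that of Ehmt2 50.8 ± 1.17% and 36.5 ± 3.10%. The share of Suv39h2 overlapped between groups, at 0.373 ± 0.0995% and 0.493 ± 0.169% (p = 0.3, exact permutation test).

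In NK92MI cells EHMT2 made up 15.4 ± 0.793% of the sum in DMSO and 11.3 ± 0.776% in BIX (p = 0.1, exact permutation test, the smallest possible). The shares of SUV39H1 (29.2 and 31.6%), SUV39H2 (23.5 and 25.2%), SETDB1 (11.7 and 11.2%) and SETDB2 (12.9 and 13.7%) overlapped between DMSO and BIX. The 5 genes other than EHMT2 summed to 44.3, 43.3 and 42.7 CPM per kb of exon in DMSO and 42.2, 40.2 and 42.5 in BIX, and the highest BIX library was just below the lowest DMSO library.

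**Figure D3:**
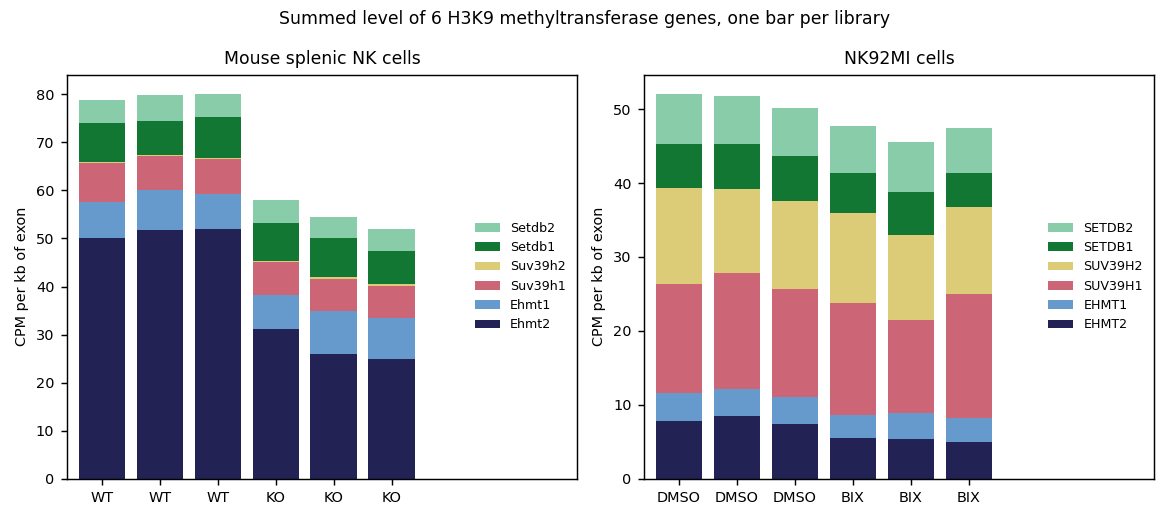
Level in CPM per kb of exon (vertical axes from 0) of 6 H3K9 methyltransferase genes, stacked, with 1 bar for each library of mouse splenic NK cells (left) and NK92MI cells (right). The dark Ehmt2 block at the base shrinks from 51.3 to 27.4 on average in KO libraries while the blocks above it keep a summed height between 26.8 and 28.8.

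Other SET domain genes with reported H3K9 activity were looked at beside the 5 genes. Prdm16 was called lower in KO NK cells, from 3.67, 2.09 and 2.04 CPM to 0.979, 0.593 and 1.15 CPM (log2 fold change −1.52, adjusted p = 0.0453). This call held in 1 of the 6 fits with a library left out, that without WT replicate 2 (adjusted p from 0.0224 to 0.158). Its human counterpart fell in BIX-treated cells too, from 20.1, 17.4 and 20.5 CPM to 10.4, 12.6 and 12.5 CPM (log2 fold change −0.71, adjusted p = 3.99e-04). Prdm2 was higher in all KO libraries, as were 19.1% of all genes tested, without being called (log2 fold change 0.23, adjusted p = 0.133). PRDM2 was at 0.02 in NK92MI cells (adjusted p = 0.874).

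Among 5 readers of methylated H3K9, which include the HP1 proteins, 1 was called in KO NK cells. Over all genes tested, 4.44% were called higher and 7.43% lower. Uhrf1, which links H3K9 methylation to maintenance of DNA methylation, fell from 33.4, 32.8 and 33.0 CPM to 23.0, 23.4 and 21.1 CPM (log2 fold change −0.56, adjusted p = 0.0269 by edgeR and 3.27e-05 by DESeq2). The median of the 5 was 0.02. Of 16 proliferation genes, 9 were called lower in the same libraries, beside 7.43% of all genes tested, among them Ccna2 (−0.80, adjusted p = 0.0241) and Top2a (−0.66, adjusted p = 0.0327). Point estimates were below 0 for 14 of the 16 and above 0 for 2 (median −0.64). The part of this in the value of Uhrf1 was not tested. Neither Uhrf1 nor any of these 9 genes was called without WT replicate 1, WT replicate 3, KO replicate 2 or KO replicate 3, where the adjusted p of Uhrf1 reached 0.131. In NK92MI cells 0 of the 5 readers were called by edgeR and 0 by DESeq2, where edgeR called 18.4% of all genes tested higher and 18.4% lower. Of the readers, 2 had an unadjusted p under 0.05, and the smallest adjusted p were those of CBX3 (log2 fold change 0.17, adjusted p = 0.0605) and CBX5 (−0.22, adjusted p = 0.0771).

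Of 5 tested genes of the SETDB1 cofactors and the HUSH complex, 2 were called lower and 1 higher in NK92MI cells, where 18.4% of all genes tested were called lower and 18.4% higher. ATF7IP, which stabilizes SETDB1 in the nucleus, fell from 94.4, 83.0 and 94.0 CPM in DMSO to 65.9, 71.6 and 58.0 CPM in BIX (log2 fold change −0.47, adjusted p = 7.27e-04). TASOR, the scaffold of the HUSH silencing complex, fell by 0.25 on the log2 scale (adjusted p = 0.0116). MPHOSPH8, the subunit of HUSH that binds methylated H3K9, rose by 0.21 (adjusted p = 0.0376). The call of MPHOSPH8 held in 1 of 6 fits with a library left out, that without BIX replicate 3 (adjusted p up to 0.118), and that of TASOR was lost without the control library CON-1 (0.0655), while ATF7IP was called in all 6. The median of the list was −0.08, beside −0.01 over all genes tested. In KO NK cells 0 of 6 were called by edgeR and 0 by DESeq2, where edgeR called 4.44% of all genes tested higher and 7.43% lower. Of the 6, 2 had an unadjusted p under 0.05, and the median was 0.12. The smallest adjusted p were those of Mphosph8 (log2 fold change 0.21, adjusted p = 0.119) and Fam208a, the mouse Tasor gene (0.23, adjusted p = 0.128).

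Of 12 genes of the NuRD complex, a histone deacetylase and remodelling complex that TRIM28 binds, 5 were called lower and 1 higher in BIX-treated cells. Over all genes tested, 18.4% were called lower and 18.4% higher. The median of the 12 was −0.09. MTA1 fell from 91.4, 100.5 and 94.1 CPM to 68.7, 69.5 and 69.2 CPM (log2 fold change −0.46, adjusted p = 1.23e-04). HDAC2 (−0.27), GATAD2A (−0.26), MTA2 (−0.22) and HDAC1 (−0.19) were lower, with adjusted p between 0.00376 and 0.0241, and RBBP4 was higher (0.17, adjusted p = 0.0330). With 1 library left out, MTA1, HDAC2 and GATAD2A were called in all 6 fits. The call of RBBP4 was lost without BIX replicate 1 or any DMSO library (adjusted p up to 0.124), that of HDAC1 without CON-2 or CON-3 (up to 0.106) and that of MTA2 without BIX replicate 1 (0.0722). CHD4 was among the 12 genes tested and was not called. Its count is uncertain, since 46.9% of its exon bases overlap another gene of the same strand. In KO NK cells 0 of 12 NuRD genes were called by edgeR (median 0.10), beside 4.44% higher and 7.43% lower over all genes tested. Gatad2a had the smallest adjusted p (log2 fold change 0.41, adjusted p = 0.0721, and 0.0275 by DESeq2, which called it), followed by Chd3 (0.31, adjusted p = 0.102). These 2 had an unadjusted p under 0.05.

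Of 3 paralogs of TRIM28, 1 was called higher in NK92MI cells and 0 lower, beside 18.4% higher and 18.4% lower over all genes tested. This was TRIM24, at 83.8, 76.6 and 83.6 CPM in DMSO and at 95.3, 104.3 and 95.7 CPM in BIX (log2 fold change 0.27, adjusted p = 0.00681), while TRIM33 (0.04) and TRIM66 (−0.03) were not called. TRIM24 was higher in all BIX libraries, as were 24.1% of all genes tested. Trim24 was higher in all KO libraries, as were 19.1% of all mouse genes tested, at 46.9, 53.2 and 50.9 CPM in WT and 57.8, 64.9 and 67.9 CPM in KO. It was not called by edgeR (log2 fold change 0.34, adjusted p = 0.0573) and was called by DESeq2 (adjusted p = 0.0295). Of 5 chaperones and remodellers that work at H3K9-methylated chromatin, 0 were called in either comparison by edgeR or DESeq2 and 1 in each had an unadjusted p under 0.05, the smallest adjusted p being those of Chaf1b in KO (log2 fold change −0.37, adjusted p = 0.0908) and ATRX in BIX (−0.21, adjusted p = 0.0639). Over all genes tested, edgeR called 4.44% higher and 7.43% lower in KO, and 18.4% higher and 18.4% lower in BIX.

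**Figure D4:**
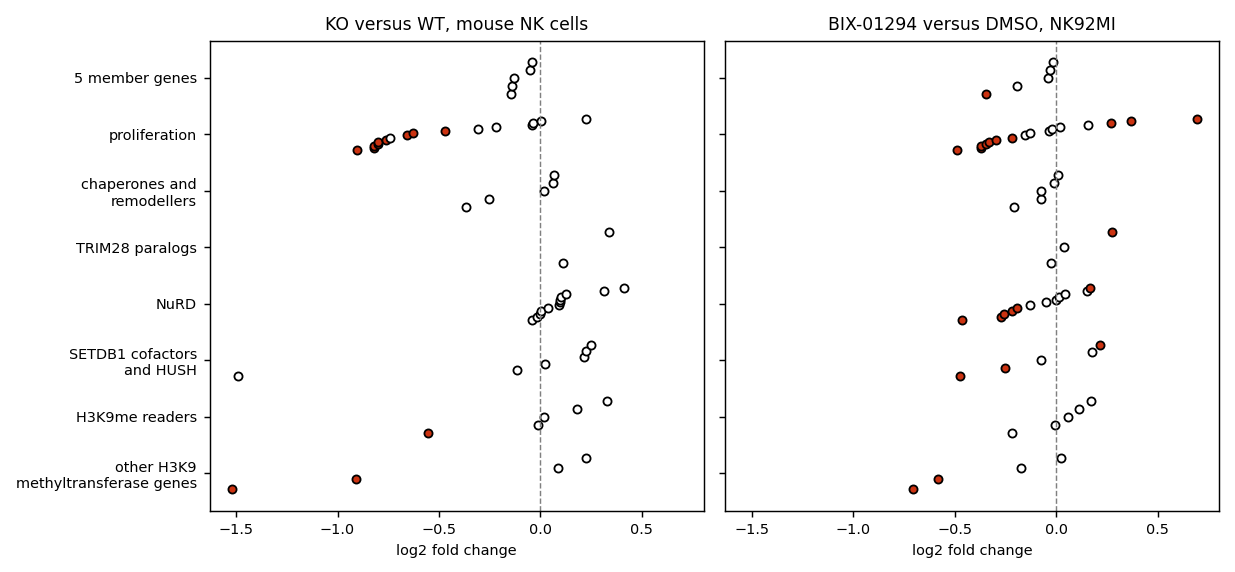
Log2 fold change (horizontal axes) of each tested gene of the lists, 1 row per list, for KO against WT (left) and BIX-01294 against DMSO (right). Red points have an adjusted p under 0.05 by edgeR. Among the 5 genes, in the top row, TRIM28 is the single red point, and red points of the SETDB1 cofactor and NuRD lists appear on the right.

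Among genes of stem and memory lymphocytes, CCR7, a lymph node homing receptor, rose in BIX-treated cells, where SUV39H1 was not called. CCR7 rose from 39.3, 45.8 and 37.9 CPM to 200.4, 185.2 and 208.6 CPM (log2 fold change 2.27, adjusted p = 1.95e-09). In KO NK cells Ccr7 was not called by edgeR and lay on the other side, at 96.4, 63.5 and 94.8 CPM in WT and 62.2, 29.6 and 35.6 CPM in KO (adjusted p = 0.0577, and 0.00176 by DESeq2, which called it lower). In these libraries the summed B cell markers did not overlap, at 345.8 to 1046 CPM in WT and 28.3 to 310.4 CPM in KO. The summed T cell markers overlapped, at 115.5 to 203.6 and 44.1 to 140.5 CPM. Of each list 0 of 5 genes were called by edgeR, with 4 B and 1 T cell marker at an unadjusted p under 0.05, all lower. The part of these cells in the level of Ccr7 was not tested.

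In NK92MI cells 7 of 16 proliferation genes were called lower and 3 higher, beside 18.4% lower and 18.4% higher over all genes tested. Point estimates were below 0 for 11 of the 16 and above 0 for 5 (median −0.14). Among the called genes were CCNA2 (−0.49, adjusted p = 3.17e-05), MCM2 (−0.33, adjusted p = 0.00111) and RRM2, which rose by 0.69 (adjusted p = 8.20e-07), all 3 called in each of the 6 fits with a library left out. Of the others, the call of BIRC5 held in 1 of these fits, that of TYMS in 3 and that of MKI67 in 5. Their summed level was 8235 to 8407 CPM in DMSO and 7943 to 8258 CPM in BIX, and overlapped. Its part in the lower level of TRIM28 was not tested.

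The genes with the most similar profile were found for each of the genes whose groups did not overlap, by the root-mean-square difference of log2 CPM, centred on the gene's mean, over the 6 libraries of the species. For Suv39h1 these were Nmt1 (0.02) and Xpot (0.03), and for Setdb2 1110004F10Rik (0.03) and Mrps2 (0.03), of 11983 genes compared. For TRIM28 they were NHERF1 (0.02) and SEPHS2 (0.02), and for SETDB1 YLPM1 (0.02) and TUBGCP4 (0.03), of 11685 genes compared. The SD of log2 CPM over the 6 libraries was 0.096 for Suv39h1, 0.097 for Setdb2, 0.204 for TRIM28 and 0.145 for SETDB1. Only the nearest genes of a large search were taken and no background distance was computed, so shared regulation was not tested.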

How the data were processed

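RNA-seq libraries were processed by the authors with fastp 0.23.4, STAR 2.7.11b (2 mismatches allowed, GRCm38/mm10 or GRCh38/hg38) and HTSeq 2.0.3, and raw counts per gene symbol were deposited. The annotation release and strand setting are not given in the sources used here. No count column was left without a group (0 others). The human control columns, headed CON-1 to CON-3, were used as the DMSO group, since no label ties them to single DMSO samples.

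From the counts, each species was fitted separately with edgeR 4.0.16 (R 4.3.3): TMM, filterByExpr, quasi-likelihood test, and Benjamini-Hochberg adjustment over all genes tested. Genes were called at an adjusted p under 0.05. Intervals are 95% from the standard error. DESeq2 1.42.0, limma-voom (limma 3.58.1), other scalings and filters, the replicate number as a block and each library left out were alternatives. The code was tested on simulated data. Exon and coding lengths, positions and overlaps came from GENCODE annotations of the same builds, which may not be the release used for counting. Genes named are all 10 members, EHMT2 and EHMT1, and from each list the called genes, up to 6 by smallest p, or else the 2 of smallest p; of these, only part is given for proliferation, and the list of stem and memory genes is not reported here in full. Ezh2 was added because a label names it. For likeness, genes with a mean of at least 1 CPM were compared. Members and lists were chosen with earlier results of these data known. The part of counting error in the spread between libraries was not estimated. The 4 human methyltransferase members had 585 to 923 counts a library, and Suv39h2 in mouse had 28 to 54. The H3K9me2 data were not analysed here.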

Additional observations from a re-analysis of the deposited data

How the results depend on the processing

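No alternative called any of the 5 genes higher in either species, and TRIM28 was called lower in BIX under all 13 alternatives that refit it (log2 fold change −0.38 to −0.29, adjusted p from 3.23e-05 to 0.00870). In mouse, none of the 5 was called under any of 14 alternatives. Point estimates near 0 changed sign when a library was left out: Setdb1 was 0.01 without WT replicate 3 and 0.025 without KO replicate 3 (range −0.11 to 0.025), and Suv39h2 was 0.085 without KO replicate 1 (range −0.36 to 0.085). In human, SUV39H2 was 0.023 (range −0.080 to 0.023) without the control library CON-1, SUV39H1 was 0.016 without CON-2, and 0.098 without BIX replicate 2 (range −0.11 to 0.098) and SETDB2 0.014 without BIX replicate 3 (range −0.088 to 0.014). Without BIX replicate 2, SETDB1 was called (−0.26, adjusted p = 0.0254; −0.26 to −0.11 over all alternatives), so that 2 of the 5 genes were. With the thresholds of the study 0 of the 5 human genes and 1485 instead of 4692 human genes were called.

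The number of mouse genes called depends strongly on single libraries. It was 1565 with all libraries and 0 to 3530 with 1 library left out: 99 without WT replicate 1, 3530 without WT replicate 2, 14 without WT replicate 3, and 0 without KO replicate 2 or KO replicate 3, where at an unadjusted p under 0.05 edgeR still found 1295 and 1372 genes higher and 1913 and 1915 lower. DESeq2 called 3087 and the thresholds of the study with edgeR 0. The 12 called genes of the lists, Uhrf1 and Prdm16 among them, became 0 to 20. The cause was not tested. With the mouse replicate number as a block 3222 genes and again 0 of the 5 were called. Deviations of same-numbered WT and KO libraries correlated at 0.28, 0.35 and −0.19, and WT replicate 3 correlated best with KO replicate 1 (0.28). Deviations from the mean of 3 libraries are tied to each other, so these correlations cannot decide whether the numbers pair the libraries. No paired analysis was possible in human because no label links the control columns CON-1 to CON-3 to the numbered DMSO samples.

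With coding instead of exon length, chosen after seeing the data, the share differences (KO minus WT, percentage points) were 4.81 for Suv39h1 (2.99 with exon length), 3.01 for Setdb1 (4.09) and 1.48 for Setdb2 (2.07), and that of EHMT2 in BIX was −3.02 (−4.13). Lengths from a protein table were not run. Suv39h2 in mouse had 28 to 54 counts a library, and the parts of counting error and of spread between libraries in its wide interval were not told apart.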
